A study of Mus musculus with 6 samples.

Results

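Mnx1, Isl1, Isl2, Lhx3 and Lhx4 encode the homeodomain transcription factors that mark motor neurons, and were followed here as 5 of the 31053 gene rows counted in every library. They were chosen by name, and all 5 rows were present in all 6 libraries. The libraries are single-cell RNA sequencing (10x Genomics 3' chemistry) of embryoid bodies, floating aggregates of differentiating mouse embryonic stem cells, at day 6 of a motor neuron protocol. All cells, the wild type included, carry the HB9::GFP reporter, in which Mnx1 (Hb9) regulatory sequence drives a fluorescent protein. The 3 genotypes are WT (wild type), DeltaSP (labelled lncMN2_SP-/-) and KO (labelled lncMN2-/-), the latter pair made with CRISPR/Cas9 at the locus of the long non-coding RNA lncMN2. Each genotype has 2 libraries, which the series text describes as separate clones, so every genotype rests on 2 clones.

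Isl1, Isl2, Lhx3 and Lhx4 are LIM homeodomain proteins, whose LIM domains bind the adaptor Ldb1 and through it each other. In the ventral spinal cord Lhx3 with Ldb1 directs V2 interneuron genes, while Isl1 and Lhx3 joined through Ldb1 direct motor neuron genes. Mnx1 is switched on in newly born motor neurons and holds down the V2 programme. Lhx3 and Lhx4 are transient in most somatic motor neurons and stay on in the medial motor column, whereas Isl1 also marks visceral motor neurons, of which those of the hindbrain lack Mnx1. Isl2 follows Isl1 in motor neurons that have left the cell cycle.

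Each factor is a protein-coding gene on a chromosome of its own in the GENCODE annotation of GRCm38 (mm10). Mnx1 (ENSMUSG00000001566) lies at chr5:29473034-29478470 on the minus strand, Isl1 (ENSMUSG00000042258) at chr13:116298281-116309689 on the minus strand and Isl2 (ENSMUSG00000032318) at chr9:55538672-55546180 on the plus strand. Lhx3 (ENSMUSG00000026934) lies at chr2:26200212-26208289 and Lhx4 (ENSMUSG00000026468) at chr1:155698031-155751684, both on the minus strand. The antisense gene Gm27196 overlaps Lhx3 and held 17 to 44 UMIs per library, and Gm17226 overlaps Isl2 and held 8 to 18. Whether the authors' counting used strand is not given in the sources used here, so reads of these overlaps cannot be assigned with certainty.

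RefSeq's promoter table (GRCm38.p6) held all 5 genes with 6 start sites, Lhx3 having 2. The 250 bases before each start had a GC content of 62% to 71.2%, against a median of 52.4% over the 32851 promoters of the table. Mnx1, Isl1 and Isl2 are shown because their windows hold CCAAT, which the windows of Lhx3 and Lhx4 do not; capitals mark CCAAT or its reverse complement ATTGG, and TAAT, the homeodomain core, or its reverse complement ATTA. The Mnx1 window is chr5:29478471-29478720, the Isl1 window chr13:116309689-116309938 and the Isl2 window chr9:55540899-55541148, each printed 5' to 3' along the gene's own strand.
Mnx1: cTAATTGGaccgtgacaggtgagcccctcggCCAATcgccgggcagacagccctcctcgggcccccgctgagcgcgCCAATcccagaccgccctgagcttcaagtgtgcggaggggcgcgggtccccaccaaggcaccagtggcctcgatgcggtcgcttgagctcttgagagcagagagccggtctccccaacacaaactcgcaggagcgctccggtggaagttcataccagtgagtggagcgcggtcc
Isl1: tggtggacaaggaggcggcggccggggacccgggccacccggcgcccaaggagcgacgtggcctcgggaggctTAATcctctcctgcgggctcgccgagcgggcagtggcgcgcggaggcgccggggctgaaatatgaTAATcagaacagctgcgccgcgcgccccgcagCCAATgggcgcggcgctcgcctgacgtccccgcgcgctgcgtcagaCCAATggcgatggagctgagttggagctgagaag
Isl2: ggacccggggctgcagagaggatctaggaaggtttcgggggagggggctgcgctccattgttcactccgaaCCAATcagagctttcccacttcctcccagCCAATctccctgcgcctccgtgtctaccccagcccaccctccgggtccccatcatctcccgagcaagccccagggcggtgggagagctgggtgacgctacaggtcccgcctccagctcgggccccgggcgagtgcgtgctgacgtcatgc
CCAAT occurred 3 times in the Mnx1 window and 2 times each in those of Isl1 and Isl2, where 33.8% of all windows of this length hold it on either strand. TAAT occurred 2 times in the Isl1 window, 1 time in the Mnx1 window, where it overlaps an ATTGG, and 1 time before the upstream Lhx3 start, against 54.9% of all windows with at least 1. TAATTA, a paired homeodomain core, was in none of the 6 windows (4.84% of all), and CAGATG or CATCTG, an E box bound by proneural factors, in 1 of them, before the inner Lhx3 start (14.4% of all). These matches are letters in a window and were not tested as sites.

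The deposited tables held 24191242 to 49061693 UMIs (unique molecules counted) per library, and 16225 cells were kept. Libraries shared 3 to 11 cell barcodes in pairs. WT 1 stood apart: its kept cells had a median of 4157 UMIs against 11898.5 to 15112 in the other libraries, and it formed clusters of its own. The gene row taken for lncMN2, 5330434G04Rik (ENSMUSG00000087620), which the labels do not name, held 661 and 907 UMIs in WT, 841 and 1066 in DeltaSP and 4 and 6 in KO. The KO level thus followed the label, while 3' tags do not check which part DeltaSP lacks.

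The cells fell into 16 clusters, made with the 5 factors left out of the variable genes and of the marker lists. Clusters were named from marker genes, by a rule on marker numbers set after the clusters were seen. Cluster 2 was committing precursor-like (Neurod4, Dll1, Neurog2 and Olig2 among its leading genes). Cluster 6 was motor neuron-like and led by Cldn3, Cntn2, Dll3 and Nhlh2, and cluster 4 was motor neuron-like and led by Sst, Scg2 and Prph. Cluster 13 was motor neuron-like and had Tbx20, a gene of visceral and cranial motor neurons, among its leading genes. Cluster 5, also motor neuron-like, held 963 WT 1 cells among 1121, and the precursor-like cluster 9 held 717 WT 1 cells among 759. Cluster 12 was interneuron-like with Shox2 among its leading genes, and cluster 10 interneuron-like with Slc32a1 and Tal1. Cluster 8 stayed unnamed. It was led by Gadd45g, one of the committing precursor markers used here, and by Jun, Chac1, Junb and Ddit3. The latter are genes of the immediate early and stress responses. Higher there were 3 of 3 motor neuron progenitor, 4 of 8 committing precursor and 3 of 9 motor neuron markers. The numbers were 1 of 11 for pan-neuronal, 0 of 7 for neural progenitor and 0 of 14 for interneuron markers. Neuron-like cells are clusters 4, 5, 6, 10, 12 and 13.

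Levels by cluster are plain CPM (the gene's part of all UMIs of the cluster in that library, on the CPM scale), given as the mean ± SD over libraries with at least 50 cells. Order is given among the clusters with at least 2 such libraries, so clusters 7 and 9, with WT 1 alone, are not ranked. The levels are a description with no test, since the cells were clustered on genes that move with the factors, and they compare clusters for 1 gene at a time. Mnx1 was highest in cluster 8, at 776 ± 152 (n = 6, range 601 to 959). Cluster 6 followed at 425 ± 56.01 (n = 5, range 353 to 481), and its libraries overlapped neither with those of cluster 8 nor with those of cluster 4 at 159 ± 26.1 (n = 5). Clusters 4, 5 and 2 came next and each overlapped with the following one of these, the precursor-like cluster 2 standing at 115 ± 34.7 (n = 5). Cluster 9, in WT 1 alone, held 241 CPM, between clusters 6 and 4. In cluster 13, Mnx1 was 41.1 ± 10.6 (n = 4), and in the progenitor-like cluster 0 it was 4.57 ± 1.64 (n = 5).

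Isl1, which starts the motor neuron and visceral motor programmes, was spread more evenly. It stood at 702 ± 79.0 in cluster 6 (n = 5), 560 ± 87.8 in cluster 4 (n = 5), 485 ± 54.7 in cluster 13 (n = 4) and 431 ± 67.6 in the precursor-like cluster 2 (n = 5), and each of these overlapped with the next. Cluster 8 reached 323 ± 167 (n = 6), where the 2 WT libraries were the lowest. The interneuron-like cluster 12 held 129 ± 49.2 (n = 3) and cluster 0 held 5.21 ± 1.25 (n = 5).

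Isl2, the later paralogue, was highest in 3 clusters whose libraries all lay above those of the next: cluster 6 at 145 ± 49.6 (n = 5), cluster 4 at 108 ± 39.5 (n = 5) and cluster 8 at 108 ± 41.1 (n = 6). The precursor-like cluster 2, where Isl1 was abundant, held 5.60 ± 3.04 CPM of Isl2 (n = 5). Cluster 9, the precursor-like cluster of WT 1, held 9.26 CPM of Isl2 beside 635 CPM of Isl1. Cluster 13 reached 28.0 ± 16.9 (n = 4), with 2.78 in WT 2 and up to 39.2 in the other libraries.

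Lhx3, shared by motor neurons and V2 interneurons, was 365 ± 125 in cluster 8 (n = 6), 264 ± 40.1 in cluster 6 (n = 5), 157 ± 44.0 in cluster 2 (n = 5) and 138 ± 61.7 in the interneuron-like cluster 12 (n = 3), each overlapping with the next. In cluster 4 it was 26.2 ± 6.03 (n = 5), and every library of cluster 4 lay below every library of cluster 6. Lhx4, its paralogue, was 333 ± 71.5 in cluster 6 (n = 5), 221 ± 41.5 in cluster 8 (n = 6), 136 ± 49.7 in cluster 12 (n = 3) and 88.8 ± 18.7 in cluster 4 (n = 5). In the precursor-like cluster 2 Lhx4 was 36.0 ± 23.1 (n = 5). Lhx3 and Lhx4 differed in their order: among the ranked clusters, cluster 2 was the third for Lhx3 and the seventh for Lhx4. In cluster 9, not ranked, WT 1 held 170 CPM of Lhx3 and 97.7 CPM of Lhx4.

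**Figure D1:**
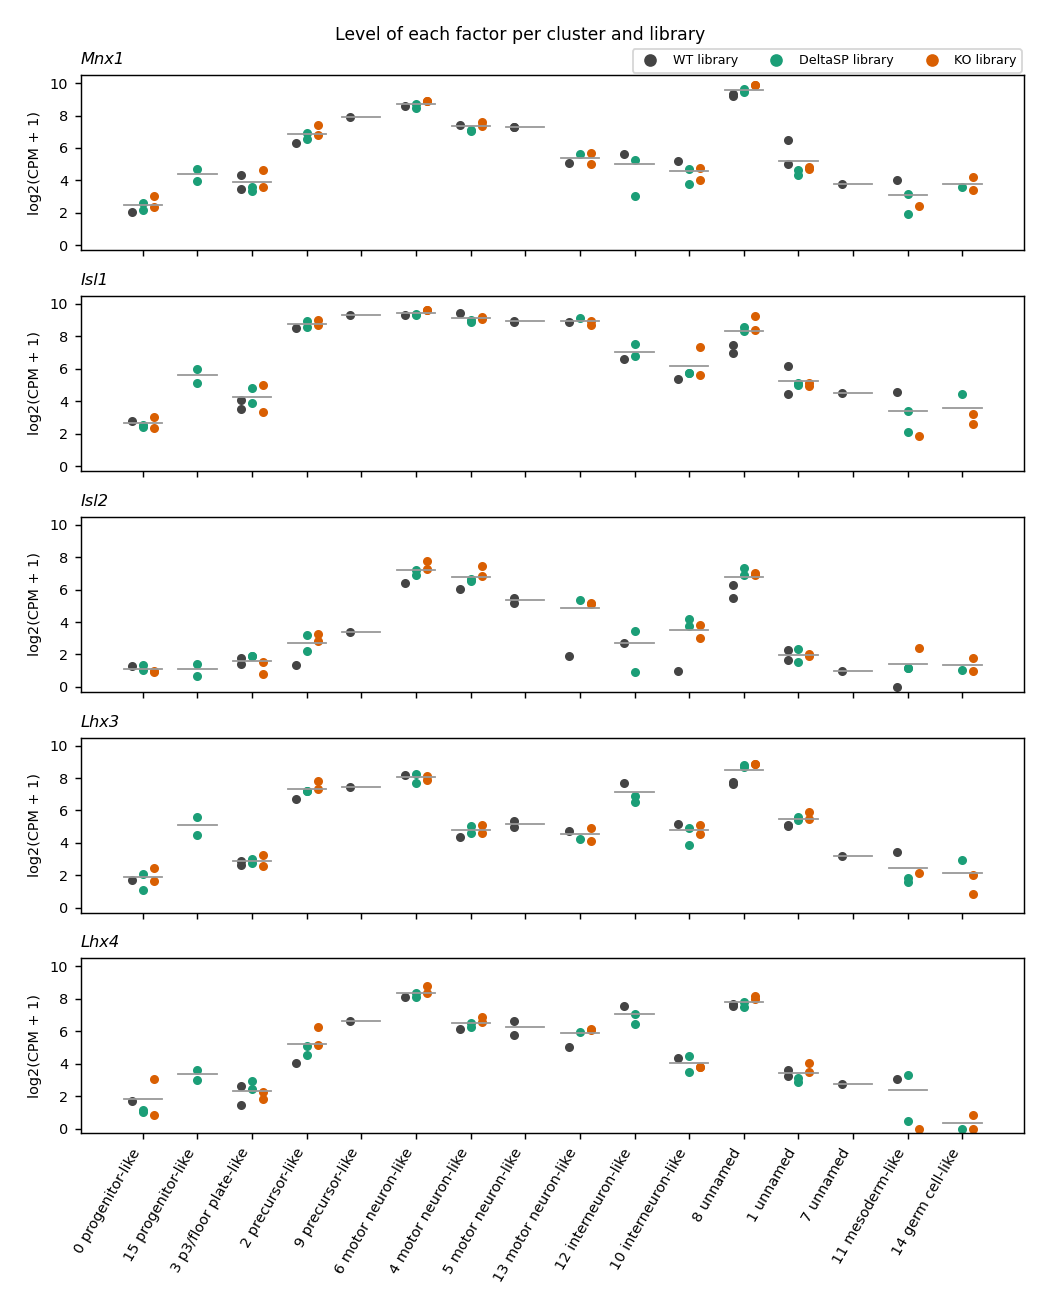
Levels of the 5 factors as log2(CPM + 1), 1 panel per gene, in each cluster with at least 50 cells of a library. Points are libraries coloured by genotype and grey lines are means; Mnx1 peaks in cluster 8 and cluster 6, Isl2 is lower in clusters 2 and 9 than in clusters 4 and 6, and Lhx3 is lower in cluster 4 than in cluster 6.

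To compare detection at equal depth, each cell was thinned to 3000 UMIs, which left 14726 cells (3563 of 4499 in WT 1, 1511 of 1612 in WT 2, 2180 of 2283 in DeltaSP 1, 3401 of 3602 in DeltaSP 2, 2073 of 2129 in KO 1 and 1998 of 2100 in KO 2). The mesoderm-like cluster was taken as a reference for background, though whether its cells lack the transcripts was not tested. A UMI was seen there for Mnx1 in 2.22% of 451 thinned cells, for Isl1 in 2.88%, for Isl2 in 0.222%, for Lhx3 in 1.33% and for Lhx4 in 0.887%. These pooled shares were taken as a background level, for which free RNA is a possible source that was not tested. The level differed between libraries. None of the 5 factors was seen in 82.2% of 73 mesoderm-like cells in WT 1 and 97.0% of 33 in WT 2. The share was 96.6% of 88 in DeltaSP 1, 97.4% of 152 in DeltaSP 2, 91.4% of 70 in KO 1 and 85.7% of 35 in KO 2. It was thus lowest in WT 1, on few cells. In the p3 or floor plate-like cluster 3 the order was another: 90.0% in WT 1, 90.9% in WT 2, 94.9% in DeltaSP 1, 94.2% in DeltaSP 2, 89.0% in KO 1 and 96.0% in KO 2. In cluster 6 Mnx1 was detected in 65.9% of 1063 thinned cells (exact 95% interval 63.0 to 68.8), Isl1 in 76.5%, Isl2 in 27.2%, Lhx3 in 47.4% and Lhx4 in 57.5%. Without thinning those shares were 93.3%, 95.3%, 58.0%, 77.6% and 89.8%, so a cell without a UMI at 3000 is not a cell without the transcript. Intervals cover counting error only.

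At least 2 of the 5 factors were detected in 86.2% of cluster 6 cells, in 69.2% of cluster 8, in 45.9% of cluster 4 and in 34.2% of the precursor-like cluster 2. The share was 22.7% in cluster 12, 13.9% in cluster 13, 0.443% in the mesoderm-like and 0.244% in the progenitor-like cluster 0. All 5 factors were detected in 42 of the 1063 cluster 6 cells and in 11 of the 675 cluster 8 cells. The commonest combination in cluster 6 was Mnx1, Isl1, Lhx3 and Lhx4 without Isl2, in 151 cells (14.2%). In cluster 4 it was Isl1 alone (28.7% of 1165 cells) and then Mnx1 with Isl1 (16.0%). In cluster 13 Isl1 alone made up 50.8% of 331 cells, and Mnx1 was detected in 6.34%, Lhx3 in 3.63% and Isl2 in 3.32%.

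**Figure D2:**
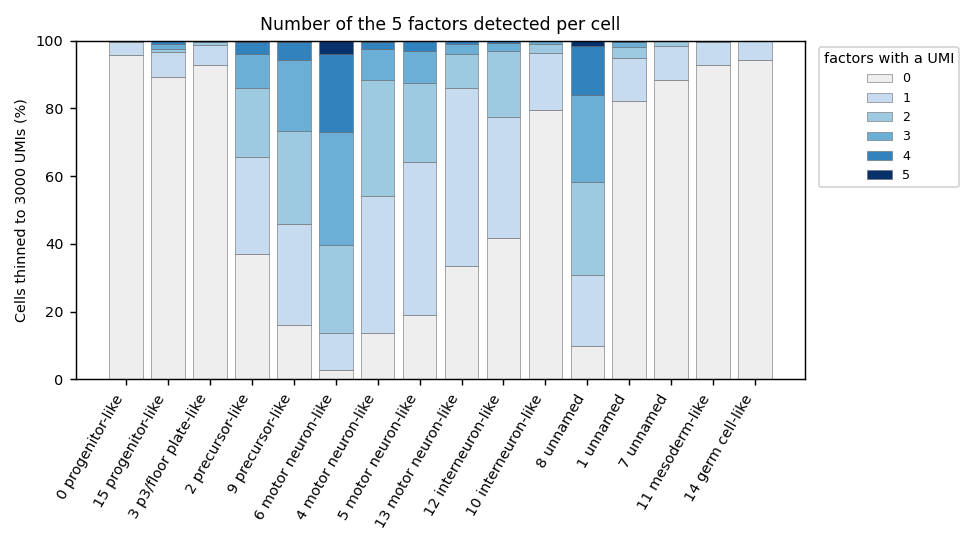
Share of cells (percent, thinned to 3000 UMIs, all libraries together) with a UMI of 0 to 5 of the factors, per cluster. Cluster 6 has the smallest share of cells with none, and 86.2% of its cells hold 2 or more.

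Pairs of factors were set against the count that independent detection within the cluster would give; these are descriptions over cells of up to 6 libraries, with no test. In cluster 6, 448 of the 504 cells with Lhx3 also held Isl1, against 385 expected, and the ratio lay between 1.09 and 1.23 in the 5 libraries with at least 50 cells. Isl2 and Lhx3 met in 96 cells against 137 expected, with ratios of 0.969 in WT 2, 0.752 and 0.551 in DeltaSP and 0.783 and 0.694 in KO. Isl2 and Lhx4 met in 204 cells against 166 expected, with ratios between 1.11 and 1.33 in the same libraries. The paralogues Lhx3 and Lhx4 thus stood on different sides of the expectation with Isl2.

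In the precursor-like cluster 2 Isl1 and Lhx3 met in 373 cells against 259 expected, with ratios from 1.33 to 1.54 over 5 libraries, and 89.0% of the 299 cells with Mnx1 also held Isl1. In the interneuron-like cluster 12 the picture turned: 60 cells held Isl1 and 106 held Lhx3, yet 4 held both, against 17.6 expected. In WT 1, the library with most of these cells, 3 cells held both against 8.47 expected, and in DeltaSP 1 and DeltaSP 2 the counts were 0 against 3.36 and 1.13. Lhx3 and Lhx4 met there in 58 cells against 32.5 expected.

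**Figure D3:**
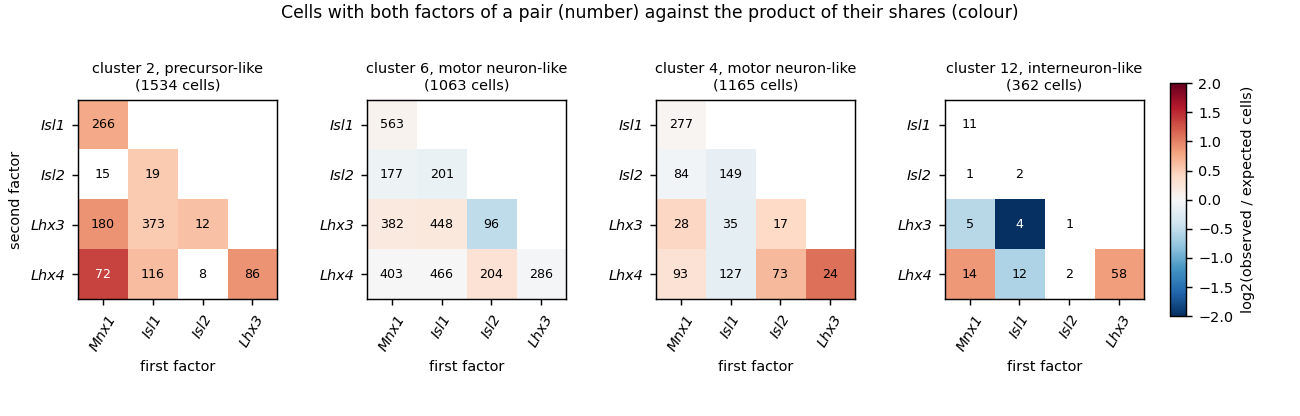
Cells with both factors of a pair (numbers) in 4 clusters, coloured by log2 of the observed over the expected count where at least 5 cells were expected. Isl1 with Lhx3 is above the expectation in clusters 2 and 6 and below it in cluster 12.

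The genotype comparisons ask whether the edits at lncMN2 changed these factors. UMIs were summed per library and tested with edgeR's quasi-likelihood test over all genes, with Benjamini-Hochberg adjustment and a threshold of 0.05, and levels below are CPM scaled by TMM. KO and DeltaSP were compared with the same WT libraries. Over all kept cells Mnx1 stood at 154 and 122 CPM in WT 1 and 2, 119 and 88.6 in DeltaSP 1 and 2 and 115 and 95.9 in KO 1 and 2. Both KO and both DeltaSP libraries lay below both WT libraries, with log2 fold changes of -0.39 ± 0.20 (SE, adjusted p = 0.242 in edgeR) in KO and -0.41 ± 0.20 (adjusted p = 0.342) in DeltaSP. On leaving out 1 library they ran from -0.54 to -0.19 in KO, the smallest without WT 1, and from -0.63 to -0.21 in DeltaSP, the smallest without DeltaSP 2. In bulk sums fewer cells of a type and less RNA per cell cannot be told apart, and neuron-like cells made up 33.0% and 36.8% of kept cells in WT, 33.4% and 25.2% in DeltaSP and 24.5% and 23.7% in KO.

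Isl1 showed the same order over all cells, at 296 and 321 CPM in WT, 259 and 229 in DeltaSP and 241 and 210 in KO. The groups did not overlap with WT, and the log2 fold changes were -0.45 ± 0.16 (adjusted p = 0.111 in edgeR) in KO and -0.34 ± 0.16 (adjusted p = 0.324) in DeltaSP. Isl2 went the other way, with 16.0 and 30.1 CPM in WT, 36.4 and 37.4 in DeltaSP and 33.2 and 38.7 in KO. WT 1 was the lowest library, and the log2 fold changes were 0.63 ± 0.27 (adjusted p = 0.167) in KO and 0.67 ± 0.27 (adjusted p = 0.274) in DeltaSP. Without WT 1 they were 0.27 (adjusted p = 0.279) and 0.29 (adjusted p = 0.366). Without WT 2 they were 1.18 (adjusted p = 0.0125) and 1.21 (adjusted p = 0.0234), the only cases of leaving out 1 library in which a factor passed over all cells. Lhx3 and Lhx4 overlapped between the genotypes, with log2 fold changes between -0.11 and 0.13.

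None of the 5 factors passed over all cells in KO against WT, where 7.52% of the 14900 genes tested did, in DeltaSP against WT (0.356% of genes) or in KO against DeltaSP (0.00671%). At an unadjusted p below 0.05 in edgeR the counts were 2, 1 and 0 of the 5 factors. Of the 14900 genes 4434, 2553 and 813 fell below it. DESeq2's Wald test also called 0 of the factors in each. The libraries of the 2 genotypes did not overlap for 3 of the 5 factors in KO against WT and for 59.3% of all genes, for 3 factors and 48.1% of genes in DeltaSP against WT, and for 0 factors and 42% of genes in KO against DeltaSP. In KO and DeltaSP against WT the factors separated about as often as genes at large.

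Summed over neuron-like cells, Isl2 stood at 29.8 and 58.6 CPM in WT, 82.1 and 103 in DeltaSP and 91.7 and 125 in KO. Every edited library was above both WT libraries. The log2 fold change was 1.28 ± 0.31 in KO against WT, with adjusted p = 0.0539 in edgeR, just above the threshold, and 1.05 ± 0.31 (adjusted p = 0.182) in DeltaSP against WT. Over the planned and added alternatives the adjusted p in KO against WT ran from 0.00085 to 0.321, and 6 of 15 fell below 0.05. Without WT 1 the difference was 0.92 (adjusted p = 0.0776) and without WT 2 it was 1.88 (adjusted p = 0.0103). For DeltaSP it was 0.66 (adjusted p = 0.250) without WT 1 and 1.63 (adjusted p = 0.0256) without WT 2.

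Lhx4 stood at 106 and 109 CPM in WT, 144 and 143 in DeltaSP and 145 and 187 in KO neuron-like cells, again without overlap with WT. Its log2 fold change was 0.62 ± 0.16 (adjusted p = 0.0630 in edgeR) in KO and 0.42 ± 0.16 (adjusted p = 0.274) in DeltaSP, and 4 of 15 alternatives for KO fell below 0.05, among them the fit without WT 2 at 0.66 (adjusted p = 0.04999). Mnx1 was 143 and 193 CPM in WT, 199 and 180 in DeltaSP and 216 and 200 in KO, with 0.31 ± 0.18 (adjusted p = 0.323) in KO, which was 0.13 (adjusted p = 0.603) without WT 1 and passed, among the alternatives run, only without WT 2, at 0.56 (adjusted p = 0.0407). Lhx3 was 63.4 and 84.5 CPM in WT, 112 and 88.9 in DeltaSP and 86.8 and 106 in KO, also without overlap with WT. Its log2 fold change was 0.38 ± 0.20 (adjusted p = 0.279 in edgeR) in KO and 0.44 ± 0.20 (adjusted p = 0.329) in DeltaSP. Isl1 was 422 and 645 in WT, with all 4 edited libraries between 463 and 536.

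None of the 5 factors passed in neuron-like cells in KO against WT (5.34% of 12889 genes), DeltaSP against WT (0.031%) or KO against DeltaSP (0.00776%). At an unadjusted p below 0.05 in edgeR the counts were 2, 2 and 0 of the 5 factors. Of the 12889 genes 3306, 2060 and 767 fell below it. DESeq2's Wald test called 2, 1 and 0 of the factors, and the share of all genes it called is not given here. Libraries did not overlap for 4 of the 5 factors and 55.2% of genes, 3 factors and 46.6% of genes, and 2 factors and 42.9% of genes. The neuron-like cells of WT 1 came mostly from cluster 5 (963 of 1485, against 0.958% to 9.44% of those of the other 5 libraries), with 13 from cluster 4 and 10 from cluster 6. The part of this in the differences from WT was not tested beyond the values without WT 1.

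**Figure D4:**
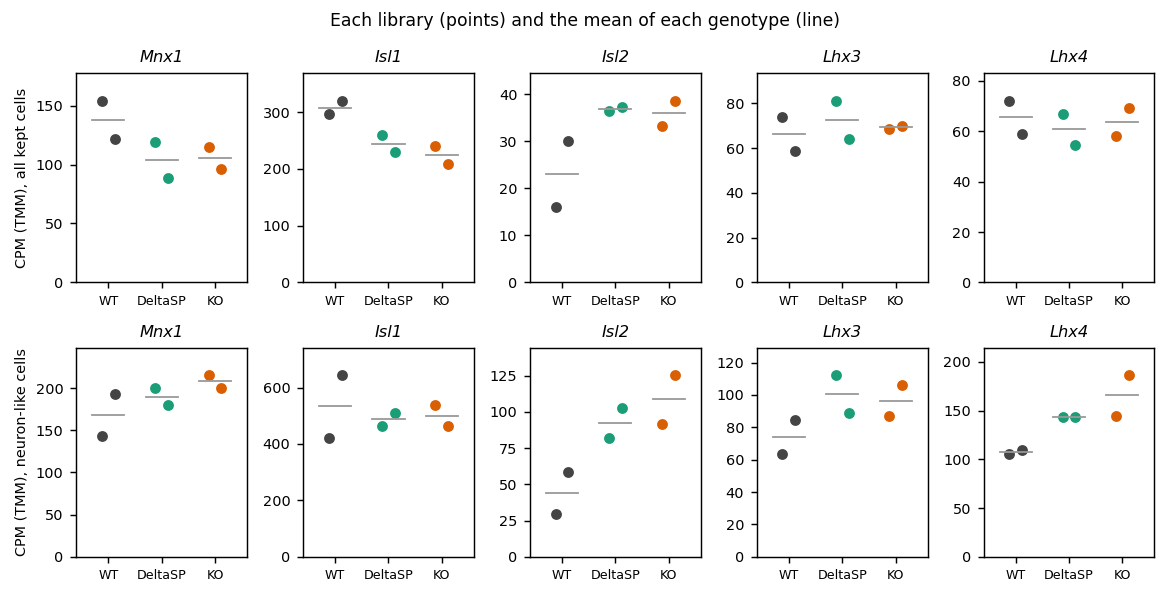
CPM scaled by TMM of each factor in the 6 libraries (points) with genotype means (lines), over all kept cells (top) and neuron-like cells (bottom). In neuron-like cells both WT libraries lie below all 4 edited libraries for Isl2, Lhx3 and Lhx4. Over all cells Mnx1 and Isl1 lie lower in the edited libraries.

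Clusters 4 and 6 held almost no WT 1 cells, so their values compare WT 2 with the edited libraries. In cluster 6 Isl2 was 85.0 plain CPM in WT 2, 120 and 149 in DeltaSP and 154 and 219 in KO. In cluster 4 it was 63.9 in WT 2, 92.97 and 102 in DeltaSP and 111 and 171 in KO. WT 2 was the lowest of 5 libraries in both, and WT had 1 library with at least 50 cells there, so no test was made. How many genes at large had WT 2 lowest was not counted, and only Isl2 is given by library for these clusters. In cluster 8, which all 6 libraries held, Isl2 was 44.6 and 77.7 in WT, 116 and 162 in DeltaSP and 119 and 128 in KO. Lhx3 in cluster 8 was 199 and 213 CPM in WT, 443 and 412 in DeltaSP and 465 and 457 in KO, and Isl1 was 178 and 126, 321 and 382, and 334 and 600. Mnx1 was 653 and 601, 795 and 699, and 949 and 959, and Lhx4 was 201 and 187, 221 and 180, and 248 and 289. Both KO libraries were above both WT libraries for 5 of the 5 factors, as for 42.6% of the 9664 genes with a mean of at least 5 CPM in cluster 8, and both DeltaSP libraries for 4 of the 5, as for 35.6% of those genes.

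A few precursor and neuronal genes also stood at different levels between the genotypes in the sums of cluster 8, and are given without a test. They stand beside the 42.6% of genes higher than WT in both KO libraries and the 35.6% in both DeltaSP libraries there. Olig2, of motor neuron progenitors, was 26.8 and 169 CPM in WT, 593 and 555 in DeltaSP and 643 and 787 in KO. Neurog2, of committing precursors, was 66.1 and 138, 520 and 291, and 547 and 691. Stmn2, of differentiated neurons, was 619 and 541 in WT, 322 and 208 in DeltaSP and 280 and 126 in KO. The precursor genes were thus lowest and the neuronal gene highest in WT, and Jun was 2367 and 4351 in WT against 1902 to 2506 in the other libraries. The part of these in the factors' levels in cluster 8 was not tested.

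The ratio of Isl2 to Isl1, which uses again the Isl2 counts given above, was also lowest in WT. Per 100 UMIs of Isl1, neuron-like cells held 7.07 and 9.09 UMIs of Isl2 in WT, 17.7 and 20.1 in DeltaSP and 17.1 and 27.0 in KO. Over all kept cells the ratio was 5.40 and 9.40 in WT, 14.03 and 16.3 in DeltaSP and 13.8 and 18.4 in KO. No edited library reached down to WT in either. Single genes did not overlap with WT in these sums for 46.6% to 59.3% of genes, and no such share was made for ratios. Per 100 UMIs of Lhx3, neuron-like cells held 167 and 129 of Lhx4 in WT, 128 and 161 in DeltaSP and 167 and 176 in KO, which overlapped.

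**Figure D5:**
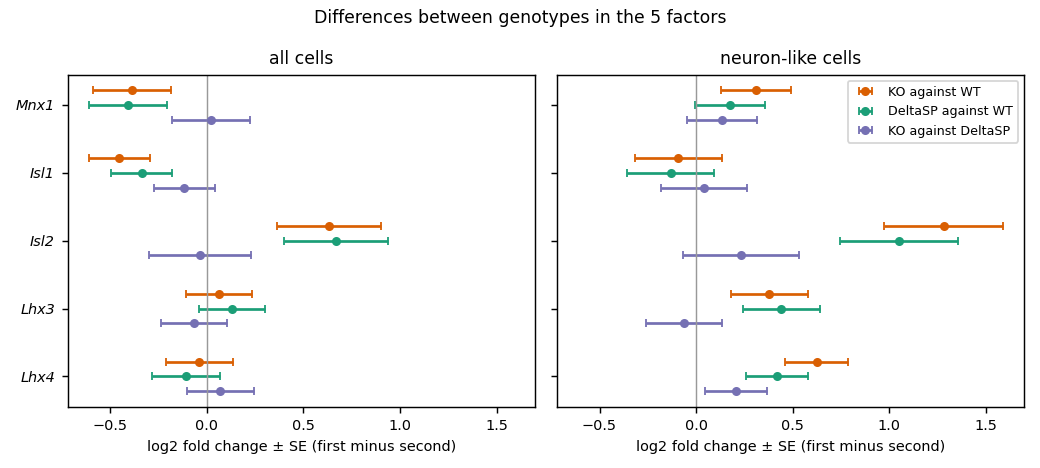
Log2 fold changes (points) with their standard errors (bars) for the 5 factors in 3 genotype comparisons, over all cells (left) and neuron-like cells (right). Isl2 has the largest differences from WT among the 5, and no difference passed the threshold.

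The share of kept cells with at least 2 of the 5 factors, at 3000 UMIs per cell, was 24.5% and 23.7% in WT, 25.6% and 20.1% in DeltaSP and 23.5% and 22.1% in KO. KO differed from WT by -1.27 percentage points (two-sided exact permutation p = 0.333) and DeltaSP by -1.28 (p = 1, exact permutation test), while KO and DeltaSP differed by 0.015 (p = 1, exact permutation test). With 2 libraries per genotype p cannot fall below 0.333. The sign turned with the depth and the detection rule, and without DeltaSP 2 the difference of DeltaSP from WT was 1.45. Among neuron-like cells the share was 30.2% and 43.1% in WT, 49.7% and 47.7% in DeltaSP and 54.9% and 54.4% in KO, with no test. Kept neuron-like cells of WT 1 were 64.8% from cluster 5, 19.3% from cluster 10 and 12.6% from cluster 12. In the other libraries these parts were 0.958% to 9.44%, 3.37% to 15.5% and 4.83% to 9.96%. The part of this in the share was not tested.

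Genes that work with the factors were read from 7 lists. Of the 10 cofactors of LIM homeodomain proteins, 0 rose and 2 fell in KO against WT over all cells, with a list median of -0.17 against 0.0012 for all genes; of all genes tested 2.81% rose and 4.71% fell. Lmo4, a LIM-only protein that competes for Ldb1, fell by 1.35 ± 0.23 on the log2 scale, from 91.3 ± 33.2 to 35.7 ± 0.95 CPM (adjusted p = 0.0307 in edgeR), and Lmo2 fell by 1.35 ± 0.31 (adjusted p = 0.0465). Ldb1 itself was 59.6 ± 7.77 in WT and 61.5 ± 3.28 in KO (n = 2 each; 0.04 ± 0.16). In neuron-like cells Lmo4 fell by 0.93 ± 0.18 on the log2 scale (adjusted p = 0.0335 in edgeR) and Lmo1 rose by 0.84 ± 0.19 (adjusted p = 0.0465), 1 member in each direction of 9 tested, where 1.65% of all genes rose and 3.69% fell.

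Of the 12 factors that act before or beside them, 2 rose and 1 fell over all cells, against 2.81% and 4.71% of all genes. Olig2, the motor neuron progenitor factor, rose by 0.79 ± 0.14 from 171 ± 10.3 to 296 ± 7.40 CPM (adjusted p = 0.0320 in edgeR). Neurod4, a proneural factor of committing cells, rose by 0.62 ± 0.13 (adjusted p = 0.0376 in edgeR). Both were among the leading genes of cluster 2. That cluster made up 0.244% and 6.45% of kept cells in WT and 16.2% and 14.6% in KO. For cluster 9, also precursor-like, the shares were 15.9% and 0.806% in WT and 0.0939% and 0.190% in KO. Neural progenitor-like cells made up 0.311% and 16.8% in WT and 21.2% and 36.2% in KO. The part of these shares in the rises was not tested. Ebf1, a factor of newly born neurons, fell by 1.51 ± 0.18 from 239 ± 24.2 to 83.9 ± 12.4 CPM (adjusted p = 0.0207), and in neuron-like cells it also fell, from 537 ± 20.7 to 267 ± 28.4 CPM (adjusted p = 0.0463). Of the 12 effector genes 0 rose and 2 fell over all cells, with a list median of -0.72: Chat, which makes acetylcholine, by 0.74 ± 0.17 (adjusted p = 0.0473) and Ecel1, a peptidase of motor axons, by 1.34 ± 0.21 (adjusted p = 0.0263). In neuron-like cells, where 1.65% of all genes rose and 3.69% fell, the median was -0.08. There Ecel1 fell by 0.78 ± 0.16 (adjusted p = 0.0400 in edgeR) and Slit3, an axon guidance ligand, rose by 0.81 ± 0.15 (adjusted p = 0.0291).

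Of the 9 columnar and pool factors 1, Pou3f1, fell over all cells, by 2.57 ± 0.59 (adjusted p = 0.0469 in edgeR), where 4.71% of all genes fell. Pou3f1 was among the leading genes of cluster 9, which held 717 WT 1 cells among 759, 2 of KO 1 and 4 of KO 2. The part of this in its fall was not tested. In neuron-like cells, where 3.69% of all genes fell, 1 of the 9 did. This was Foxp1, the factor of the lateral motor column, by 0.88 ± 0.18 from 115 ± 27.1 to 62.4 ± 4.36 CPM (adjusted p = 0.0395 in edgeR). None of the 14 interneuron genes, 5 visceral and hindbrain genes or 5 tested other LIM homeodomain genes passed in KO against WT over all cells, and none of any list passed in DeltaSP against WT or KO against DeltaSP. These calls rest on few clones. Over all cells none of the 8 passed without WT 1 (adjusted p 0.0529 to 0.115), without KO 1 (0.0734 to 0.178) or without KO 2 (0.243 to 0.325), and in neuron-like cells none of the 6 passed without KO 1 (0.138 to 0.209) or without KO 2 (0.233 to 0.320), while 2 passed without WT 1 and 1 without either DeltaSP library. Their direction held in every alternative run. How many genes at large lost their call in the same fits is not given here. The loss thus cannot be read as particular to these genes.

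The genes whose levels were most like each factor were ranked by Pearson's r of log2(CPM + 1) over 63 sums per cluster and library, among 10390 genes, as a description; sums of 1 library share its depth. For Mnx1 they were Enox2 (r = 0.90), Hecw2, Plk3, Meis3 and Lhx4 (r = 0.86). For Isl1 they were Nhlh2 (r = 0.93), Slc18a3, the vesicular acetylcholine transporter, Cntn2, Gng2 and Chat (r = 0.90). For Isl2 they were Rasgef1c (r = 0.94), Slc10a4, Gm5868, Chat and Cldn3 (r = 0.91). For Lhx3 they were Nhlh1 (r = 0.89), Plk3, Pcbp4, Srrm4 and Igsf21 (r = 0.87), and for Lhx4 Cntn2 (r = 0.92), Epb41, Tspan5, Hecw2 and Nhlh2 (r = 0.90). Among the factors themselves r ran from 0.62 for Isl2 with Lhx3 to 0.88 for Isl1 with Lhx4.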

How the data were processed

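The authors deposited 1 table of raw UMI counts for each library, genes by barcodes, made with Cell Ranger 4.0 on mm10 with Ensembl release 93, per the submitters' processing notes and the labels. The series text names the kit V3 and the sample labels V3.1. The deposited tables hold 24215 barcodes, each with at least 500 UMIs.

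A cell was kept if it held 1000 genes or more and if mitochondrial UMIs did not exceed 10%. Clusters came from scanpy 1.11.5 (2000 variable genes, 30 principal components, Leiden resolution 0.6, leidenalg 0.10.2, Python 3.11.15). A marker counted for a cluster where it was at least 1.5 times the rest. No doublet caller was used; leaving out the 6% of cells with most UMIs stood in as an alternative. Counts were summed per library and tested in R 4.3.3 with edgeR 4.0.16 (TMM, filterByExpr, quasi-likelihood test, 6 libraries in 1 fit, 3 residual degrees of freedom, Benjamini-Hochberg adjustment over all genes tested), with DESeq2 1.42.0 as an alternative. On simulated data of 14900 genes for all cells, the edgeR step recovered 81% of planted 2-fold and 100% of planted 4-fold changes, with 10 false calls. For neuron-like cells, with 12889 genes, it recovered 75% and 100%, with 4 false calls. Changes were planted only among genes with the higher means. Each gene was given the spread of the trend over all genes, and no library was set apart as WT 1 was. These rates thus do not tell how often such changes are found in the data themselves.

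The members and lists were chosen with earlier results of these data known. Of each list up to 4 members with the smallest p in KO against WT over all cells and up to 2 in DeltaSP against WT could be named, and for each factor the 5 most alike genes; Ldb1 and the genes named only in neuron-like cells were chosen after their values were seen. Alternatives were the normalization, the low-count filter, the cell filter, thinned sums, a replicate block, the genotypes fitted, cluster resolution, thinning depth, the detection rule and leaving out each library; sums over motor neuron-like clusters alone, and the share of genes that separate in cluster 8, were added after seeing the data. Libraries are named by genotype and number.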

Additional observations from a re-analysis of the deposited data

Results flagged for a closer look

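For Isl2 the KO and WT libraries stood in opposite orders in the 2 cell classes, which is why it is listed here. How many of the 14289 genes tested did so was not counted. In neuron-like cells both KO libraries were above both WT libraries, and in the other kept cells both were below, at 7.54 and 4.85 CPM scaled by TMM against 7.95 and 8.49. The difference between the log2 fold changes was 1.72, with adjusted p = 0.131 over 14289 genes in edgeR's quasi-likelihood test with libraries as blocks, so it did not pass the adjustment. The levels in the other cells are low and come from sums over many clusters. Cluster 8 is among them, and there Isl2 was higher in both KO libraries than in both WT libraries, as given above. Cluster 8 made up 7.25% and 7.69% of kept cells in WT and 4.93% and 2.62% in KO. The part of this in the sums was not tested.

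Lhx4 is listed for the same order of libraries in DeltaSP against WT. Its 2 DeltaSP libraries were above WT in neuron-like cells and below WT in the other cells, at 17.6 and 14.9 CPM against 52.0 and 20.8. The difference between the log2 fold changes was 1.47 (adjusted p = 0.279 in edgeR), so it did not pass either. WT 1 held most of clusters 7 and 9 among the other cells (1011 of 1044 and 717 of 759 cells), and the part of this in the difference was not tested.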

How the results depend on the processing

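Of 420 values for single factors under alternatives, 379 kept their direction and side of the threshold, 17 came to pass it and 24 changed sign. The count of factors past the threshold, 0 in each comparison, became 1 without the low-count filter over all cells in both comparisons with WT. In neuron-like KO against WT it became 1 without the low-count filter, with the looser cell filter (500 genes, 20% mitochondrial UMIs) and at Leiden resolution 1.2, and 2 with DESeq2's Wald test or with motor neuron-like clusters only; DESeq2 called 1 in DeltaSP against WT. With the replicate block it was 1, Isl2 at an adjusted p of 0.0202 in edgeR; the labels give the clones only numbers, whose paired deviations correlated at 0.177 in neuron-like KO and WT and at 0.137 over all cells, and the block changed no other call of a factor. On leaving out 1 library the count ran from 0 to 1 over all cells in both comparisons with WT, from 0 to 3 in neuron-like KO against WT and from 0 to 1 in DeltaSP against WT.

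Signs turned for small differences: Lhx4 in KO against WT over all cells was 0.0037 without the low-count filter, and Mnx1 in KO against DeltaSP was -0.013 with the looser cell filter. On leaving out 1 library, over all cells Lhx4 ran from -0.17 to 0.13 and Lhx3 from -0.084 to 0.25 in KO against WT, Lhx4 from -0.26 to 0.049 and Lhx3 from -0.045 to 0.31 in DeltaSP against WT, and in KO against DeltaSP Lhx3 ran from -0.22 to 0.12, Mnx1 from -0.17 to 0.25, Lhx4 from -0.065 to 0.23 and Isl2 from -0.15 to 0.069. In neuron-like cells Isl1 ran from -0.34 to 0.26 in KO against WT, Mnx1 from -0.018 to 0.41 and Isl1 from -0.40 to 0.20 in DeltaSP against WT, and in KO against DeltaSP Isl1 ran from -0.066 to 0.14, Lhx3 from -0.21 to 0.12 and Isl2 from -0.012 to 0.44. The share of cells with at least 2 factors differed in KO against WT by 0.629 points at 2000 UMIs, 3.78 with 2 UMIs as detection, -2.24 without the 6% of cells with most UMIs, -2.59 with the looser filter and -1.98 to -0.557 without 1 library. In DeltaSP against WT it was 0.420 at 2000 UMIs, 2.48 with 2 UMIs and -4.02 to 1.45 without 1 library, and in KO against DeltaSP -0.496 without the 6%, -1.38 with the looser filter and -2.72 to 2.75 without 1 library. The cause was not tested. Over all alternatives the genes called in KO against WT ran from 4 to 3390 over all cells (1121 as reported) and from 3 to 2471 in neuron-like cells (688), in DeltaSP against WT from 1 to 1326 (53) and 2 to 1169 (4), and in KO against DeltaSP from 1 to 422 (1) and 1 to 142 (1). The 2 clones per genotype limit every test, and the lower depth of WT 1 limits detection per cell.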
